A study of Homo sapiens with 6 samples.

Results

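Antisense, divergent and intronic noncoding transcripts were followed in Huh7, a long-established line of human hepatocellular carcinoma cells, after exposure to GABA (gamma-aminobutyric acid), an amino acid best known as a neurotransmitter. Members were all listed genes whose symbol ends in -AS or -AS with digits (antisense transcripts), -DT (divergent transcripts), -IT with digits (transcripts from an intron) or -OT with digits (transcripts overlapping a gene on the same strand). Of the 5187 genes in the count files, 156 met this rule: 101 antisense, 48 divergent, 7 intronic and 0 overlapping transcripts. The text before the hyphen names a partner gene, and that partner was itself listed for 52 members, 35 antisense, 13 divergent and 4 intronic. RNA was sequenced from 3 control libraries and 3 libraries of cells treated with GABA for 24 h, with both groups grown in DMEM with 10% fetal bovine serum. The labels used here give no GABA dose. They name biological replicates 1, 2 and 3 in each group but do not say that these were separate cultures, so p-values measure the spread between these libraries, part of which may be technical.

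A divergent transcript starts near the promoter of its partner gene and is copied from the opposite strand, away from the gene. Many mammalian promoters, above all those in CpG islands, are transcribed in both directions. The upstream product is usually short-lived, because early polyadenylation signals and the nuclear exosome end and degrade it. An antisense transcript is copied from the strand opposite its partner and overlaps it in whole or in part. Single antisense transcripts have been described that raise, lower or do not affect the gene they face. An intronic transcript lies inside an intron of the host gene and can be hard to separate from unspliced RNA of that gene.

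The naming classes differed in position. In GENCODE release 29 on GRCh38, 40 of the 48 divergent transcripts started within 1000 bp of the annotated start of their partner, at a median distance of 201 bp over the class. Of the 101 antisense transcripts, 31 lay head to head with their partner within 1000 bp, and 66 others overlapped it on the opposite strand with starts farther apart. The 7 intronic transcripts overlapped their host gene on the same strand, with 0 shared exon bases.

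The promoters of the divergent class were rich in G, C and CpG. RefSeq windows (GRCh38.p14, 250 bases before to 50 after the annotated start) were found for 116 members, 38 of them divergent, 76 antisense and 2 intronic. The median GC content was 69.0% in the 38 divergent promoters, 62.0% in the 76 antisense promoters and 58.7% in all 35116 promoter windows. The median number of CpG dinucleotides per window was 31, 20 and 14 in the same order. The letters TATAAA, searched on both strands as the TATA box, occurred in 0 of 38 divergent windows, in 5.26% of antisense windows and in 11.5% of all windows. The NRF1 motif occurred in 18.4% of divergent windows, 14.5% of antisense windows and 5.78% of all windows, and CCAAT in 28.9%, 28.9% and 34.6%. The ETS motif CCGGAAGT occurred in 10.5%, 5.26% and 4.14%, the CREB motif TGACGTCA in 2.63%, 3.95% and 1.85%, and the AP-1 letters TGACTCA or TGAGTCA in 10.5%, 6.58% and 4.95%. No motif in this search contains another. These are matches of letters and do not show that a factor was bound.

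Sequence between opposite starts is shown for 6 members whose own values and whose partner's values are described below. In each line, capitals are bases upstream of the member's start, running from the partner's start nearest to it in RefSeq or GENCODE release 29, and the lower-case letters are the first 50 bases of the member. The letters are from RefSeq, GRCh38.p14, and are written 5′ to 3′ on the member's strand. The first 4 belong to pairs called in opposite directions and the last 2 to pairs called in the same direction.
ZNF674-AS1, chrX:46545458-46545539, plus strand: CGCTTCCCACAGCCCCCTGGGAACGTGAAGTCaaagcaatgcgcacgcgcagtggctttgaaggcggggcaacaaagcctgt
PCCA-DT, chr13:100088894-100089014, minus strand: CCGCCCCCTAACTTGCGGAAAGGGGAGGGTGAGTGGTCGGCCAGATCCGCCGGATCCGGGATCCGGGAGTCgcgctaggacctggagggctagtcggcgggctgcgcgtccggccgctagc
GAS6-DT, chr13:113864077-113864226, plus strand: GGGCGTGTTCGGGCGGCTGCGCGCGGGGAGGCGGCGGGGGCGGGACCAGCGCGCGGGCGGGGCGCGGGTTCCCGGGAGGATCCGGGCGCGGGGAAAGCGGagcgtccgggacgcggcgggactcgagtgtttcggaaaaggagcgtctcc
TRIM52-AS1, chr5:181261144-181261261, plus strand: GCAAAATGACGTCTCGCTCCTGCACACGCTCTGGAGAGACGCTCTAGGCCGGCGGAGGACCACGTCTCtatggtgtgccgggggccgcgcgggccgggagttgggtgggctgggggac
MAN1B1-DT, chr9:137086768-137086926, minus strand: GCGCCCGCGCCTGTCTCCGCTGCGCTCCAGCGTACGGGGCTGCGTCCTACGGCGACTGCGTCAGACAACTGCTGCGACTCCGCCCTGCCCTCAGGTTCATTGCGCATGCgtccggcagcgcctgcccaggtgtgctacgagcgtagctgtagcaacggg
EIF3J-DT, chr15:44536874-44537056, minus strand: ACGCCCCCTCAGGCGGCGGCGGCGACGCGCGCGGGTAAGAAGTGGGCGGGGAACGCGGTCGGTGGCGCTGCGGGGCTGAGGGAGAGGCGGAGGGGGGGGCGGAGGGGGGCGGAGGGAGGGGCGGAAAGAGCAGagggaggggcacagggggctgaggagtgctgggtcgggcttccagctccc
The capitals span 32 bases for ZNF674-AS1 and 133 bases for EIF3J-DT, the shortest and the longest of the 6. Of the 6 stretches shown, the one for ZNF674-AS1 holds a searched motif, NRF1. The GC content of the stretches ranged from 61.0% for ZNF674-AS1 to 78.7% for GAS6-DT.

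The files do not sample the genome evenly. Across the 4981 genes that passed the count filter, file order and the p-values of this comparison had a Spearman correlation of 0.93, and the smallest absolute log2 fold change was 0.12. Of those genes, 98.7% passed an adjusted p of 0.05 in edgeR's quasi-likelihood test, 47.6% higher and 51.2% lower with GABA, so that being called sets no member apart and the direction and size carry the description. Control and GABA libraries did not overlap for 92.5% of tested genes, and 10.3% were called with a change of at least 1 on the log2 scale. The largest rises and falls of each class were named only from members without such overlap, so their separation was fixed by that choice. Listed counts totalled 7702666 to 8392945 per library. CPM values below are counts scaled to a common total of listed counts, after TMM scaling, a relative measure in which fewer cells of a type and less RNA per cell cannot be told apart. Mitochondrial genes took 7.14% to 9.11% of the counts in controls, with the highest share in control library 3, and 6.66% to 7.04% with GABA. The part of this difference in the results below was not tested. Of 17 hepatocyte markers, KRT8 and KRT18 were listed, of 7 fibroblast markers COL3A1 and PDGFRB were, and of 5 immune markers 0 were, so these files do not allow a check of the cell type.

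More members rose than fell with GABA. The filter left 136 members, of which 89 were higher, 46 lower and 1 (BAIAP2-DT) not past the threshold, or 65.4% higher against 47.6% of all tested genes. Their median log2 fold change was 0.64, with quartiles of -0.49 and 1.03, against a median of -0.18 over all tested genes. The share of all called genes that were higher was 48.2% in the edgeR fit and 54.8% in DESeq2, which was run without the count filter. The share of called members was 65.9% and 70.7%. In edgeR without the filter these shares were 48.5% of called genes and 68.4% of called members. A change of at least 1 on the log2 scale was seen in 34.6% of tested members, 35 upward and 12 downward, against 10.3% of all tested genes. That size went with low level and was shared by other scarce genes: it was reached by 79.1% of members and 80.2% of other listed genes under 5 CPM, and by 38.2% of LINC transcripts and 42.8% of other long noncoding genes at any level. Control and GABA libraries did not overlap for 131 of the 136, near the 92.5% of all tested genes. Other groups of noncoding genes were near the 47.6% higher of all tested genes. Of 55 tested LINC transcripts 24 were higher (43.6%) and 31 lower, with a median of -0.30, and 43.2% of 278 tested other long noncoding genes were higher. No test compared these groups with the members.

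The members were scarce RNAs. Their median level was 7.09 CPM against 73.3 CPM for all listed genes, and per kb of exon 3.30 against 14.3 CPM. Together the 156 members took 0.237% to 0.251% of listed counts in the control libraries and 0.256% to 0.263% in the GABA libraries. Among other listed genes with a mean under 5 CPM, 51.1% of 364 tested genes were higher. The 20 members that did not pass the filter, all at a mean of 1.16 CPM or less, comprised 10 antisense transcripts (7 with every GABA library above every control library, 3 below), 8 divergent and 2 intronic transcripts, all 10 of the latter with GABA above. They were listed through the same selection and support no direction.

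**Figure D1:**
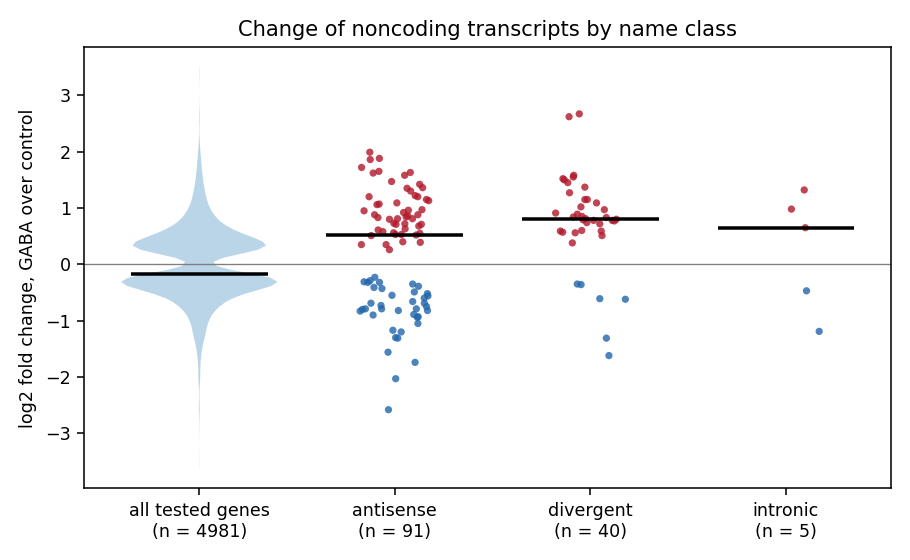
Log2 fold change, GABA over control, of every tested member by naming class, with all tested genes beside them. Points are single members coloured by sign, the violin shows the distribution of all tested genes and bars mark medians, which are 0.81 for divergent transcripts, 0.52 for antisense transcripts and -0.18 for all tested genes.

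Most divergent transcripts rose. Of the 40 tested, 34 were higher, 5 lower and 1 did not pass, so 85.0% were higher against 47.6% of all tested genes. The median log2 fold change was 0.81, with quartiles of 0.58 and 1.15. The level summed over all 48 listed divergent transcripts, 8 of them untested, was 509, 529 and 450 CPM in control libraries 1 to 3. It was 715, 698 and 665 CPM in the GABA libraries. Every GABA sum was above every control sum. The files were selected along this comparison and most of these transcripts were called higher, so that separation adds no support. Control library 3, which had the highest mitochondrial share, had the lowest sum. Without that library 36 divergent transcripts were higher and 6 lower. At a mean level of 5 CPM or more, 23 of 27 were higher and 3 lower. Of the 13 below that level 11 were higher, but several of these, such as NDUFV1-DT and CDC37L1-DT, met the count filter through their GABA libraries, so their direction supports nothing. Among the 27 tested divergent transcripts whose exons overlap no exon of another annotated gene, 24 were higher and 2 lower. Of the 13 listed partners of divergent transcripts, 8 were higher and 5 lower, with a median of 0.27.

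**Figure D2:**
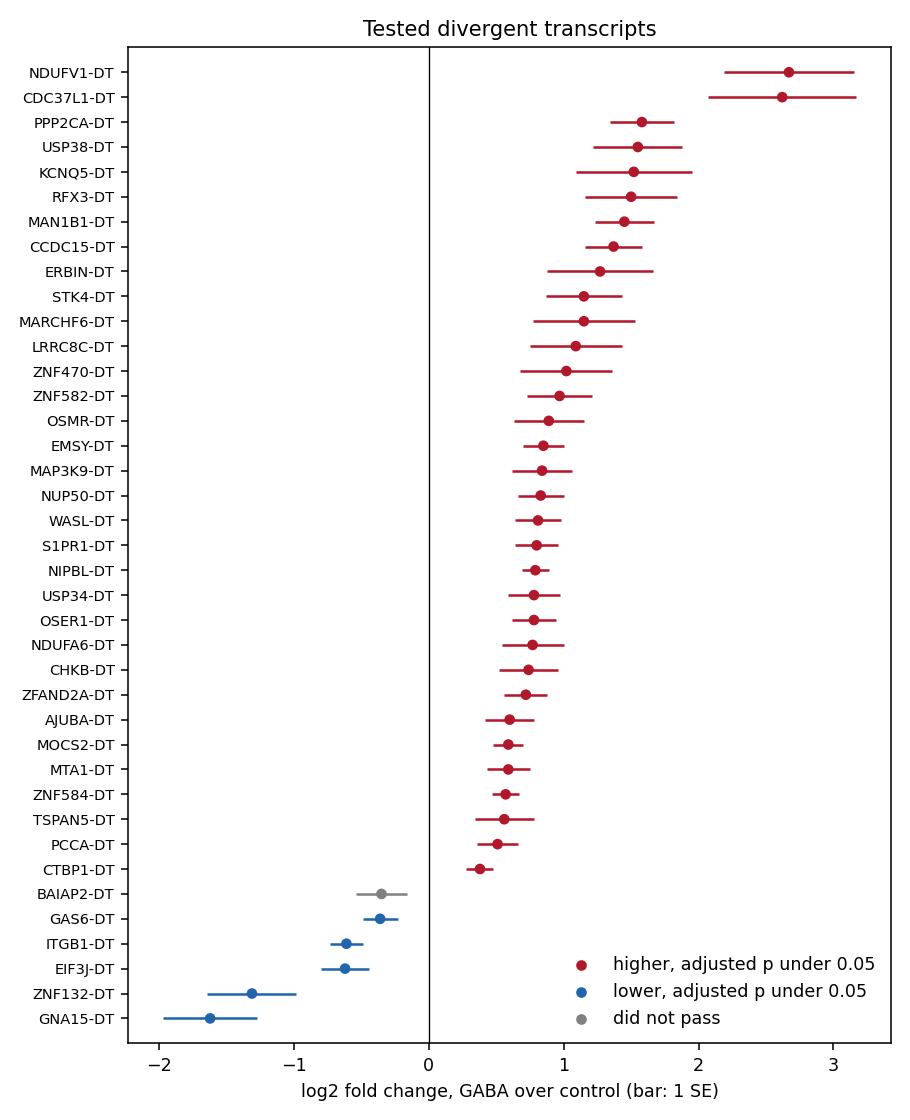
Log2 fold changes with standard errors of divergent transcripts that passed the count filter, ordered by size. Of those shown, 33 were called higher with GABA and 5 lower, and 1, BAIAP2-DT, was not called.

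Several divergent transcripts at moderate levels illustrate the rise. NIPBL-DT (ENSG00000285967, chr5:36864425-36876700, minus strand) starts 59 bp from NIPBL, which encodes a loader of the cohesin complex. It stood at 29.9, 25.9 and 27.3 CPM in control libraries 1 to 3 and at 49.6, 47.4 and 46.9 CPM in the GABA libraries. All GABA values were above all control values, and the log2 fold change was 0.79 ± 0.10 (SE, n = 3 per group, adjusted p = 8.7e-05, edgeR). MAN1B1-DT (ENSG00000268996, chr9:137084946-137086817, minus strand), whose promoter is printed above, lies beside the gene of an alpha-mannosidase that trims glycans of misfolded glycoproteins. It measured 8.13, 14.6 and 7.38 CPM in controls and 30.6, 26.7 and 24.7 CPM with GABA. Control library 2 was the highest control and still below every GABA library, and the log2 fold change was 1.45 ± 0.22 (adjusted p = 0.00021, edgeR).

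The divergent transcript with the highest per-length level was S1PR1-DT, at 36.7 CPM per kb, which was also the highest of all members. Its partner S1PR1 encodes a receptor for sphingosine 1-phosphate. S1PR1-DT was at 12.4, 10.4 and 9.54 CPM in controls and 20.3, 20.2 and 15.9 CPM with GABA, with no overlap between groups. Its log2 fold change was 0.80 ± 0.16 (adjusted p = 0.0014, edgeR), and that of S1PR1 was 0.79. CTBP1-DT, beside the gene of a transcriptional corepressor, had the highest level in CPM of the divergent class: 71.0, 67.5 and 54.4 CPM in controls and 85.0, 83.6 and 83.3 CPM with GABA. The groups did not overlap, and control library 3 was again the lowest, for a log2 fold change of 0.38 ± 0.10. ZNF584-DT, beside a zinc finger gene, moved from 41.2, 37.7 and 35.2 CPM to 53.4, 57.2 and 58.4 CPM, a log2 fold change of 0.57 ± 0.10 with no overlap.

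The largest rises of the class came at low counts. NDUFV1-DT, named for a subunit gene of respiratory complex I, had 2, 2 and 3 counts in controls and 14, 11 and 22 counts with GABA, for a log2 fold change of 2.67 ± 0.48. CDC37L1-DT had 5, 1 and 1 counts in controls and 19, 14 and 12 with GABA, for 2.62 ± 0.55. Neither pair of groups overlapped, but each fold rests on a handful of control reads. PPP2CA-DT, beside the catalytic subunit gene of protein phosphatase 2A, rose from 4.13, 2.33 and 2.80 CPM to 10.3, 9.69 and 8.03 CPM, for 1.58 ± 0.24. The other large rises by the naming rule were USP38-DT (1.55), KCNQ5-DT (1.52), RFX3-DT (1.5) and CCDC15-DT (1.37).

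The 5 divergent transcripts that fell were GNA15-DT, ZNF132-DT, EIF3J-DT, ITGB1-DT and GAS6-DT. ITGB1-DT (ENSG00000229656, chr10:32958845-33082102, plus strand), named for the integrin beta 1 gene, stood at 44.9, 38.1 and 36.1 CPM in controls and 23.9, 26.1 and 27.9 CPM with GABA. The groups did not overlap and the log2 fold change was -0.61 ± 0.12 (adjusted p = 0.0011, edgeR). EIF3J-DT, whose start lies opposite the gene of a translation initiation factor subunit, was at 26.8, 26.2 and 25.4 CPM in controls and 21.3, 18.2 and 11.6 CPM with GABA. GABA library 3 was the lowest, and the log2 fold change was -0.62 ± 0.18 (adjusted p = 0.0083, edgeR), or -0.40 without that library. GNA15-DT and ZNF132-DT changed by -1.62 and -1.31 at control means under 3 CPM. BAIAP2-DT measured 51.7, 65.8 and 33.6 CPM in controls and 42.3, 37.7 and 38.4 CPM with GABA. Control library 3 lay below every GABA library, and the difference of -0.35 ± 0.19 did not pass (adjusted p = 0.081, edgeR), although it passed at -0.58 without that library and was -0.12 without control library 2.

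Antisense transcripts changed in both directions. Of the 91 tested, 52 were higher and 39 lower, 57.1% higher against 47.6% of all tested genes, with a median log2 fold change of 0.52. The summed level of all 101 listed antisense transcripts, 10 of them untested, did not follow that count. It was 1880, 1930 and 1930 CPM in control libraries 1 to 3 and 1830, 1820 and 1810 CPM with GABA. OIP5-AS1 alone, which is in these sums, went from a mean of 269 CPM in controls to 159 CPM with GABA. Of the 10 highest in level, 3 were higher and 7 lower, with a median of -0.31. These are too few to set against the 47.6% higher of all tested genes. Of the other 81 tested, 49 were higher and 32 lower. By position, 16 of 28 head-to-head antisense transcripts and 33 of 59 that overlap the partner with distant starts were higher, and 12 and 26 were lower. No test compared these positions.

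OIP5-AS1 (ENSG00000247556, chr15:41283990-41309737, plus strand) was the most abundant member. It is a conserved cytoplasmic RNA, also called cyrano, known for a long complementary site for miR-7. It stood at 268, 249 and 289 CPM in control libraries and at 157, 161 and 160 CPM in GABA libraries. The groups were far apart and the GABA libraries close to each other, with a log2 fold change of -0.75 ± 0.07 (adjusted p = 9.5e-06, edgeR). EPB41L4A-AS1, second in level per kb of all members at 35.3 CPM per kb, fell from 126, 125 and 143 CPM to 109, 113 and 93.4 CPM, a log2 fold change of -0.32 ± 0.09. ADIRF-AS1 fell from 84.5, 93.9 and 82.4 CPM to 71.2, 64.1 and 61.0 CPM, a log2 fold change of -0.41 ± 0.09. In both, every GABA library was below every control library. Exons of EPB41L4A overlap 49.6% of the exon bases of EPB41L4A-AS1, and exons of ADIRF overlap 16.0% of those of ADIRF-AS1. The files' counting is not stated to use the strand, so reads in these shared exons cannot be assigned to either gene. MAGI2-AS3 was at 148, 134 and 166 CPM in controls and 132, 126 and 124 CPM with GABA, a difference of -0.23 ± 0.09 that passed at an adjusted p of 0.022 in edgeR but not without GABA library 2 (-0.22) or library 3 (-0.21), nor in DESeq2 (-0.19), and that was -0.15 without control library 3.

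**Figure D3:**
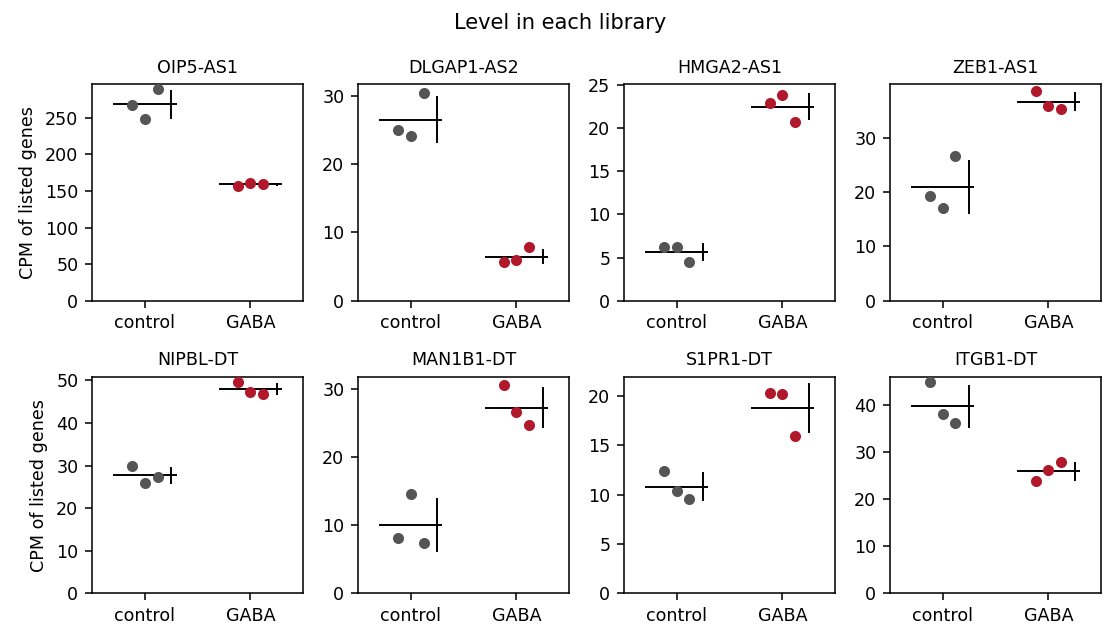
Level in CPM of selected members in each library, with 1 point per library a horizontal bar at each group mean and a vertical bar of 1 SD. OIP5-AS1 lies at 249 to 289 CPM in the 3 control libraries and at 157 to 161 CPM in the 3 GABA libraries.

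The largest rise in this class was HMGA2-AS1 (ENSG00000197301, chr12:65851340-65882167, minus strand), which lies inside the gene of an architectural chromatin protein expressed in embryos and many tumours. It was at 6.19, 6.22 and 4.45 CPM in controls and at 22.9, 23.8 and 20.7 CPM with GABA. All GABA libraries were above all controls, with a log2 fold change of 1.99 ± 0.17 (adjusted p = 5.4e-06, edgeR). CALCRL-AS1, named for the receptor gene of adrenomedullin and CGRP, measured 0.607, 1.42 and 1.40 CPM in controls and 4.62, 3.88 and 4.13 CPM with GABA, a log2 fold change of 1.88 ± 0.33. BCAR3-AS1 measured 1.94, 2.98 and 3.56 CPM and then 9.76, 8.14 and 10.0 CPM, a log2 fold change of 1.72 ± 0.25. The groups of neither overlapped, which the naming rule required of all the largest rises and falls. The other rises named by the rule were ZNF295-AS1 (1.65), STPG3-AS1 (1.63), HDAC4-AS1 (1.62), DNAH17-AS1 (1.58, and 2.56 without control library 3) and TPM1-AS (1.47). Partner exons overlap 37.2% of the exon bases of STPG3-AS1 and 26.8% of those of DNAH17-AS1, where reads cannot be assigned to either gene.

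The largest falls reached several-fold. KLHL30-AS1 (ENSG00000279484) had 5.46, 6.22 and 4.96 CPM in controls and 0.899, 1.03 and 0.826 CPM with GABA, where it was left with 7, 8 and 7 counts. The groups did not overlap, and the log2 fold change was -2.58 ± 0.29 (adjusted p = 3.3e-05, edgeR). DLGAP1-AS2 (ENSG00000262001, chr18:3603000-3608336, plus strand) was the larger in level, at 25, 24.1 and 30.4 CPM in controls and 5.65, 5.94 and 7.79 CPM with GABA. Its groups did not overlap either, with a log2 fold change of -2.03 ± 0.17 (adjusted p = 4.5e-06, edgeR). HOXC13-AS, head to head with a homeobox gene of the HOXC cluster, fell from 25.1, 33.0 and 23.4 CPM to 12.3, 14.3 and 12.7 CPM, a log2 fold change of -1.05 ± 0.16. MIF-AS1 (-1.74), PTPRD-AS1 (-1.56), CTNS-AS1 (-1.31), CLDN14-AS1 (-1.30) and ZFHX4-AS1 (-1.17) completed the falls named by the rule. Exons of MIF overlap 46.5% of the exon bases of MIF-AS1, and reads there cannot be assigned to either gene.

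Antisense transcripts that are often studied in carcinoma cells did not share a direction. ZEB1-AS1 (ENSG00000237036), beside the gene of a transcription factor of epithelial-mesenchymal transition, was at 19.3, 17.0 and 26.6 CPM in controls and 38.7, 35.9 and 35.4 CPM with GABA. Control library 3 was the highest control and below every GABA library, and the log2 fold change was 0.81 ± 0.15 (adjusted p = 0.00083, edgeR). HOXB-AS3, from the HOXB cluster, was at 25, 32.4 and 13.9 CPM in controls and 40.7, 39.5 and 44.8 CPM with GABA, a log2 fold change of 0.81 ± 0.21, with control library 3 far below the other controls. FOXD2-AS1 was at 8.50, 7.12 and 7.89 CPM and then 11.6, 11.2 and 13.7 CPM, for 0.63 ± 0.17, without overlap. SBF2-AS1 was at 42.0, 43.3 and 50.7 CPM and then 35.3, 35 and 38.5 CPM, for -0.32 ± 0.11, which passed at an adjusted p of 0.015 in edgeR but not without GABA library 1 or GABA library 2 (-0.30 each).

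Of the 5 intronic transcripts tested, 3 were higher and 2 lower, against 47.6% and 51.2% of all tested genes. THBS1-IT1, within the gene of the matrix glycoprotein thrombospondin 1, measured 9.59, 6.47 and 11.7 CPM in controls and 17.2, 17.8 and 19.9 CPM with GABA. It did not overlap between groups and had a log2 fold change of 0.98 ± 0.19, beside 0.47 ± 0.06 for THBS1 itself, which lies on the same strand. ZNF346-IT1 (1.32) and GABPB1-IT1 (0.65) were also higher. SOS1-IT1, from an intron of a Ras exchange factor gene, fell from 5.22, 4.66 and 5.34 CPM to 2.44, 2.58 and 1.65 CPM, for -1.19 ± 0.26, and ANKRD10-IT1 fell from 16.9, 19.6 and 17.4 CPM to 13.1, 12.4 and 13.3 CPM, for -0.47 ± 0.14. In both, all GABA libraries lay below all controls.

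Members and their partners moved in the same direction in some pairs and in opposite directions in others. Of the 52 pairs with both genes listed, both were called in 44. The direction was the same in 27, 17 with both higher and 10 with both lower, and opposite in 17, of which 13 had the member higher and the partner lower and 4 the reverse. DESeq2, run without the count filter and so on another set of pairs, gave 32 the same and 13 opposite. In edgeR without the filter these counts were 33 and 19. The member changed more than its partner in 37 of 44 pairs, and the median size of the log2 fold change was 0.84 for members and 0.38 for partners. Scarce listed genes had larger changes in general. That median was 1.25 for other listed genes under 5 CPM and 0.37 for listed coding genes. The part of level and selection in the contrast of member and partner was not tested. Across the 44 pairs the 2 log2 fold changes had a Pearson correlation of 0.36 and a Spearman correlation of 0.34, a description only, since both come from the same libraries and may share reads. Per kb of exon the median member stood at 18.4% of its partner, and 5 members stood above theirs. Partners are in the files through the same selection, so pairs with an unlisted partner have no part in these counts.

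The files' counting is not stated to use the strand, so where exons of a pair overlap, reads of the member and of the partner cannot be told apart. Of 19 pairs with exon overlap, 14 moved in the same direction and 5 in opposite directions. Of 25 pairs without it, 13 moved the same way and 12 in opposite ways. The 20 head-to-head pairs split into 12 and 8, and the 32 pairs with at least 5 CPM in both genes into 19 and 13. These splits were not tested against each other.

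**Figure D4:**
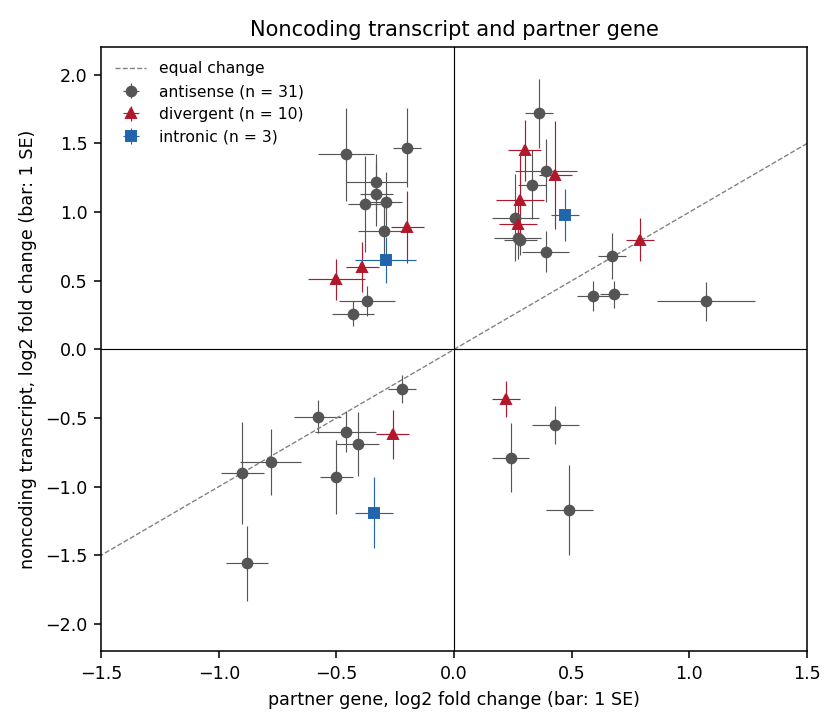
Log2 fold change of each member against that of its partner gene for the 44 pairs in which both were called. Points in the upper right and lower left quadrants are the 27 pairs that moved the same way, and the others are the 17 that moved in opposite ways.

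In the opposite pairs at the highest member levels, member and partner moved apart by modest amounts. ARRDC1-AS1 rose from 65.5, 68.5 and 60.8 CPM to 75.4, 80.1 and 77.9 CPM, while ARRDC1, an arrestin-domain gene, fell from 151, 159 and 129 CPM to 108, 105 and 112 CPM. The log2 ratio of member to partner was -1.20, -1.21 and -1.09 in controls and -0.52, -0.39 and -0.52 with GABA. The groups did not overlap, which gives an exact permutation p of 0.10 (2-sided), the smallest that 3 libraries against 3 allow. In each opposite pair named here both genes were already apart between groups in opposite directions. The separation of the ratios and this p were therefore fixed in advance and add no support. The log2 fold changes were 0.26 ± 0.09 and -0.43 ± 0.09, and that of ARRDC1-AS1 did not pass without GABA library 2 (0.24).

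ZNF674-AS1, with its start 36 bp from that of the zinc finger gene ZNF674 and its promoter printed above, was at 25.6, 24.6 and 27.5 CPM in controls and 34.8, 31.4 and 32.8 CPM with GABA. ZNF674 was at 27.9, 33.8 and 32.1 CPM in controls and 24.8, 25.2 and 22.8 CPM with GABA. The member was below its partner in all 3 control libraries and above it in all 3 GABA libraries, with log2 ratios of -0.12, -0.46 and -0.22 and then 0.49, 0.32 and 0.53 (exact permutation p = 0.10, the smallest possible). The fall of ZNF674, -0.37 ± 0.12, did not pass without GABA library 3 (-0.32).

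PCCA-DT faces the gene of the alpha subunit of propionyl-CoA carboxylase, a mitochondrial enzyme of amino acid and odd-chain fatty acid breakdown. It rose from 12.9, 13.3 and 11.1 CPM to 19.0, 16.8 and 17.2 CPM, while PCCA fell from 27.6, 32.6 and 34.1 CPM to 22.7, 21.6 and 22.3 CPM. Neither gene overlapped between groups, with log2 fold changes of 0.51 ± 0.15 and -0.50 ± 0.12. AJUBA-DT rose from 10.9, 13.7 and 8.52 CPM to 16.8, 15.4 and 18.2 CPM, a log2 fold change of 0.60 ± 0.18, while AJUBA, which encodes a LIM-domain protein of cell junctions, fell by 0.39 on the log2 scale. AJUBA stood at 982 to 1110 CPM in controls and at 742 to 819 CPM with GABA, also without overlap. TAPT1-AS1 rose from 4.13, 4.40 and 5.72 CPM to 10.0, 12.3 and 11.0 CPM, 1.22 ± 0.20, against -0.33 ± 0.13 for TAPT1, whose call was lost without control library 3 (-0.19), GABA library 1 (-0.35) or GABA library 2 (-0.27), and in DESeq2 and with its size factors in edgeR (-0.29 each). GABPB1-IT1 rose from 11.5, 14.4 and 9.54 CPM to 19.3, 17.2 and 19.0 CPM, against -0.29 ± 0.13 for GABPB1, the partner subunit of an ETS factor. The GABPB1 fall passed at an adjusted p of 0.046 in edgeR and was lost without control library 3 (-0.17) or any 1 of the 3 GABA libraries (-0.19 to -0.34), with library size as the only scaling (-0.27), and in DESeq2 and with its size factors in edgeR (-0.24 each).

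The member fell and the partner rose in 4 pairs, among them GAS6-DT and TRIM52-AS1. GAS6 encodes a ligand of the TAM receptor kinases. GAS6-DT was at 24.8, 22.7 and 25.8 CPM in controls and 19.0, 20.9 and 17.3 CPM with GABA, while GAS6 was at 327, 325 and 331 CPM and then 381, 391 and 376 CPM. Neither gene's groups overlapped, with log2 fold changes of -0.36 ± 0.13 and 0.22 ± 0.06. The fall of GAS6-DT did not pass without control library 1 (-0.35), GABA library 1 (-0.35) or GABA library 3 (-0.29), nor in DESeq2 (-0.31). TRIM52-AS1 was at 22.2, 19.3 and 19.1 CPM in controls and 12.8, 14.5 and 14 CPM with GABA, while TRIM52, a RING-finger gene, was at 32.0, 37.7 and 34.1 CPM and then 47.5, 44.6 and 47.9 CPM. The groups were apart for both, at -0.55 ± 0.14 and 0.43 ± 0.10, and the log2 ratio moved from -0.53, -0.96 and -0.84 to -1.88, -1.62 and -1.77. Exons of TRIM52-AS1 and TRIM52 do not overlap each other in GENCODE release 29, although 28.0% of the member's exon bases overlap another gene.

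**Figure D5:**
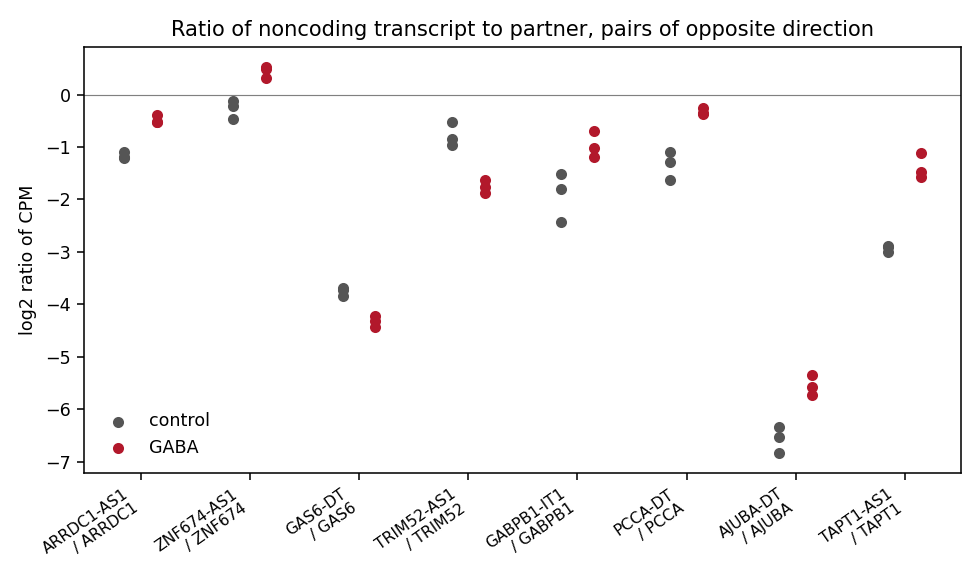
Log2 ratio of member to partner CPM in each library for the pairs named as called in opposite directions, with 1 point per library. The control and GABA points of each pair shown do not overlap, as for ZNF674-AS1, at -0.46 to -0.12 in controls and 0.32 to 0.53 with GABA. Both genes of each pair were already apart in opposite directions, so this separation was fixed in advance.

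Pairs that moved together included the head-to-head promoters of MAN1B1, S1PR1 and EIF3J. Beside the rise of MAN1B1-DT, MAN1B1 went from 434, 437 and 376 CPM to 527, 491 and 518 CPM, a log2 fold change of 0.30 ± 0.07. The divergent transcript thus changed more than the gene, and their log2 ratio rose from -5.73, -4.90 and -5.66 to -4.11, -4.20 and -4.39 (exact permutation p = 0.10, the smallest possible). EIF3J changed by -0.26 ± 0.07 beside -0.62 for EIF3J-DT. ZEB1 was at 111, 100 and 134 CPM in controls and 133, 138 and 145 CPM with GABA, so that its groups overlapped, and its change of 0.27 ± 0.10 did not pass without control library 1 (0.24), control library 2 (0.17), GABA library 2 (0.27) or GABA library 3 (0.23). Exons of ZEB1 overlap 9.6% of the exon bases of ZEB1-AS1, and reads there cannot be assigned to either gene.

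RGMB-AS1 rose from 45.4, 47.3 and 39.0 CPM to 56.5, 56.8 and 60.1 CPM, 0.40 ± 0.10, with RGMB, a co-receptor gene of bone morphogenetic proteins, at 0.68 ± 0.06. GTF3C2-AS2 rose from 27.6, 26.8 and 32.1 CPM to 52.8, 48.4 and 49.3 CPM, 0.80 ± 0.11, with GTF3C2, a subunit gene of transcription factor TFIIIC, at 0.28 ± 0.07. PPP3CB-AS1 fell from 28.4, 26.3 and 26.5 CPM to 19.5, 19.4 and 19.0 CPM, -0.49 ± 0.12, with PPP3CB, a catalytic subunit gene of calcineurin, at -0.58 ± 0.10. The groups of these 3 antisense transcripts did not overlap. CD44-AS1 rose from 4.98, 3.76 and 8.39 CPM to 15.2, 12.7 and 11.7 CPM, 1.20 ± 0.25, beside 0.33 ± 0.06 for CD44, the hyaluronan receptor. SLC16A1-AS1 fell from 75.3, 86.0 and 70.5 CPM to 60.2, 63.8 and 64.9 CPM, -0.29 ± 0.10, with the lactate transporter gene SLC16A1 at -0.22 ± 0.06, and its call was lost without GABA library 1 (-0.26). TGFB2-AS1 was at 14.1, 21.1 and 5.47 CPM in controls and 5.91, 8.91 and 6.96 CPM with GABA, overlapping groups with control library 3 the lowest of all 6. Its difference of -0.90 ± 0.37 passed at an adjusted p of 0.032 in edgeR but not without control library 1 (-0.87), control library 2 (-0.44), GABA library 1 (-0.77) or GABA library 3 (-0.87), nor in DESeq2 (-0.86) or limma-voom (-0.71). TGFB2, the gene of a transforming growth factor beta ligand, changed by -0.90 ± 0.09. Exon bases shared with the partner made up 15.5% of RGMB-AS1, 14.3% of CD44-AS1 and 10.7% of GTF3C2-AS2. They made up 1.7% of SLC16A1-AS1, 0.2% of PPP3CB-AS1 and 0.0% of TGFB2-AS1. Reads in shared exons cannot be assigned to either gene of a pair.

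In TPM1-AS, a member higher beside a lower partner, 61.7% of the exon bases overlap exons of TPM1, a tropomyosin gene. TPM1-AS measured 2.06, 5.31 and 2.54 CPM in controls and 9.38, 8.53 and 9.44 CPM with GABA, and TPM1 1820, 1720 and 1760 CPM and then 1500, 1510 and 1590 CPM. The 2 genes moved apart without overlap, at 1.47 ± 0.29 and -0.20 ± 0.06, and reads in the shared exons cannot be assigned to either gene.

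Genes that end or degrade such transcripts were split in direction much like the listed genes as a whole. Of 87 symbols in 3 lists, older names included, 31 were tested, with 14 higher, 16 lower and 1 (SMG1) not past the threshold, or 45.2% higher against 47.6% of all tested genes, with a median log2 fold change of -0.17 against -0.18. In nuclear RNA surveillance, which comprises the exosome and its adaptors, 3 of 9 were higher and 6 lower, with a median of -0.27. The exosome subunit EXOSC6 changed by -0.65, its fellow subunit EXOSC4 by 0.53, and SRRT (ARS2), which links the cap-binding complex to decay, by 0.38. ZFC3H1, a subunit of an exosome-targeting connection for polyadenylated RNA, changed by -0.27. In termination and 3′ end formation 7 of 13 were higher and 6 lower, including the Integrator subunits INTS8 (-0.99) and INTS1 (0.45) and the 5′ to 3′ exonuclease XRN2 (0.29). In cytoplasmic decay and double-stranded RNA processing 4 of 9 were higher and 4 lower, including the nonsense-mediated decay helicase UPF1 (0.58) and the decapping enzyme DCP2 (-0.44).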

How the data were processed

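RNA from 6 Huh7 libraries, 3 control and 3 GABA, had been made with a TianGen kit and a standard Illumina protocol, per the labels' protocols. The authors deposited 1 file of raw read counts per gene and library. CASAVA 1.8, Bowtie 0.12.2 and the hg38 build are named in the submitters' processing notes; the counting program, annotation release and strand setting are not given in the sources used here. Identifiers of 4904 genes were named from a gene name table and of 283 from GENCODE 29, which also gave positions and exon overlap.

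The deposited counts were compared in edgeR 4.0.16 (R 4.3.3): filterByExpr (minimum count 10, minimum total 15), which left 4981 of 5187 genes, TMM scaling, a robust quasi-likelihood fit without covariates, and Benjamini-Hochberg adjustment over all tested genes at a threshold of 0.05. Levels are TMM-scaled CPM. Standard errors of log2 fold changes are approximate: the absolute log2 fold change divided by the square root of the quasi-likelihood F statistic. Pair ratios used a prior count of 0.5 and an exact permutation test in scipy 1.17.1.

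Members, lists and tests were chosen with earlier results of these data known. Named members were, per class, the 8 largest rises and 8 largest falls at 1 CPM or more on average without overlap of the groups, the 10 highest in CPM and the 10 highest per kb, the 8 pairs with the highest member level in each of the same and opposite directions, and a list of often studied antisense transcripts where listed. Not every gene the rule takes is described; NIPBL-DT, CD44-AS1 and the partners S1PR1, CD44, TPM1, TGFB2, THBS1, MAN1B1 and EIF3J fall outside it and were chosen after their values were seen. Alternatives were other scalings, filters and tests (DESeq2 1.42.0, limma-voom 3.58.1), a replicate block, leaving out each library, GENCODE symbols, a higher level minimum and pairs without exon overlap. Counts within classes and members without any exon overlap were added after seeing the data.

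A divergent transcript and its partner are counted but not reported here by name.

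The labels used here do not say whether equal numbers pair control and GABA libraries. Same-numbered deviations correlated at 0.000333, -0.089 and -0.0363 over 4981 genes, which shows no pairing but cannot exclude it.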

Additional observations from a re-analysis of the deposited data

How the results depend on the processing

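No tested member changed sign under any alternative. Under DESeq2, run without the count filter, 106 members were higher and 44 lower, with 32 pairs the same and 13 opposite. Of all called genes 54.8% were then higher, and 53.7% with its size factors in edgeR. That share was 51.7% to 51.9% without a GABA library, against 48.2% in the reported fit. DESeq2 size factors in edgeR gave 27 pairs the same and 14 opposite. In edgeR without the low-count filter 106 members were higher and 49 lower, with 33 pairs the same and 19 opposite. With the replicate block the counts were 89 and 46, for pairs 27 the same and 17 opposite, for divergent transcripts 34 and 5, and for the surveillance lists 14 and 14. No library correlated best with the library of its own number in the other group. With GENCODE 29 symbols, which name 98 members, 57 members were higher and 32 lower. Among them 11 divergent transcripts were higher and 3 lower, and 44 antisense transcripts were higher and 27 lower. At a mean of at least 5 CPM, 59 members were higher and 33 lower. At that level 23 divergent transcripts were higher and 3 lower, and 34 antisense transcripts were higher and 29 lower. For members without exon overlap with other genes, 37 were higher and 12 lower. Of these, 24 divergent transcripts were higher and 2 lower, and 10 antisense transcripts were higher and 8 lower, with 9 pairs the same and 9 opposite. Pairs without exon overlap with each other gave 13 the same and 12 opposite. These subsets hold fewer genes by construction. Leaving out each library in turn gave 83 to 94 members higher and 38 to 46 lower, 32 to 37 divergent transcripts higher and 4 to 6 lower, 47 to 54 antisense transcripts higher and 32 to 38 lower, and 23 to 26 pairs the same and 12 to 16 opposite. Of 1089 values for 78 named genes under the alternatives, 1050 kept direction and call, 38 lost the call, in 11 genes, and 1 gained it. Low counts limit the divergent class: the folds of its 2 largest rises rest on single-digit control counts.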
